A study of Mus musculus with 4 samples.

Results

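The region described here is a 1 Mb stretch of mouse chromosome 17, from 46 to 47 Mb of the mm9 build, that holds the gene Vegfa, and its members are the places in it where the estrogen receptor alpha, ESR1, was called as bound. All peaks of the liver and uterus lists with a summit in the stretch were taken, which gave 26 of 6932 liver peaks and 37 of 24836 uterus peaks, 63 of 31768 in all. The region was chosen from the peak lists themselves, with the number of peaks of both tissues known, so the counts of peaks, their overlaps and their strengths are given as a description, with no test. The study mapped ESR1 by chromatin immunoprecipitation and sequencing (ChIP-seq) in flash-frozen liver and uterus of female C57BL/6 mice aged 8 weeks. The labels name no genotype and no hormone or other treatment. The 4 samples were 1 ESR1 library and 1 input control from each tissue, and the controls enter here only through the authors' peak calls. The sources used here give neither the number of animals behind a library nor the stage of the estrous cycle. Each tissue has 1 library, so there is no measure of the variation between animals, and tissue and library cannot be told apart.

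Vegfa encodes vascular endothelial growth factor A, a secreted protein that acts on receptors of endothelial cells and drives the growth and the leakiness of blood vessels. In the uterus it is a known estrogen-responsive gene, and its rise after estrogen goes with the swelling of the tissue; in the liver, hepatocytes make it for the sinusoidal endothelium. ESR1 is a nuclear receptor that, with estrogen bound, sits on estrogen response elements or is held at DNA by other factors, often far from the genes it acts on. A peak is a stretch of chromatin where tags, the sequenced ends of recovered DNA fragments, pile up over the control, and its summit is the point of the highest pile.

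Vegfa is read from the minus strand, so positions above the gene in number lie upstream of its start. Its place in mm9 is known here only roughly, as 46.15 to 46.17 Mb, and distances below run from a summit to the nearer end of that interval, with 0 inside it. An error of a few kb in each distance is therefore possible. In the order of a RefSeq annotation (GRCm38.p6), the 5 protein-coding genes that follow Vegfa on its upstream side are Mrps18a, Rsph9, Mad2l1bp, Gtpbp2 and Polh, and on the downstream side the nearest 4 named genes are Mrpl14, Tmem63b, Capn11 and Mymx, beyond 1 gene known only by a clone name. Peaks were not placed against these neighbours, because that annotation is of another build.

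The 250 bases before a RefSeq start of Vegfa are shown as background on the gene. The site of both tissues near the start-site end had its summits 1.98 kb (liver) and 1.97 kb (uterus) inside the rough interval. Whether any peak covers the 250 bases was not determined, so the matches below are not read as part of a peak. The 250 bases come from GRCm38.p6, minus strand, chr17:46032378-46032627. These numbers are of another build and cannot be set against the mm9 positions below. The capitals mark GC boxes, the letters GGGCGG, which Sp1-family factors can bind.
Vegfa promoter: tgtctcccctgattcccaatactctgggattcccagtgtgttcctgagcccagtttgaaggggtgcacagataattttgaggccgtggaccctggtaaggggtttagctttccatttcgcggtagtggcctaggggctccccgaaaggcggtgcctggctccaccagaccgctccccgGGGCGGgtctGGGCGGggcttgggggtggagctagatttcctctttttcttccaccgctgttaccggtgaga
RefSeq has 2 promoter entries for Vegfa, and the matches given here are those in the entry shown. On both strands, the search found 2 GC boxes, 72 to 67 and 62 to 57 bases before the start, which do not overlap each other. At least 1 such match occurs in 32.7% of the 32851 RefSeq promoter entries of the same length. The full palindromic estrogen response element, GGTCANNNTGACC, had 0 matches here and occurs in 0.0639% of the entries. Its single-repeat form, AGGTCA, had 0 matches and occurs in 14.02% of them. These are matches of letters and not sites of binding. The bases under the peaks were not analysed here, since no genome of the build of the files was used.

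The libraries were of similar depth, with 20016495 unique tags in liver and 22298008 in uterus. The first members inside, at 46 Mb, were a liver peak with 55 tags and a uterus peak with 138 tags, and the nearest peaks outside lay 37.02 kb (liver, 44 tags) and 81.6 kb (uterus, 44 tags) below the bound. At 47 Mb the last members held 46 tags in liver and 36 in uterus, and the nearest peaks outside lay 140 kb (liver, 33 tags) and 147 kb (uterus, 88 tags) above it.

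Both tissues had many ESR1 sites around Vegfa, and most peaks of each did not overlap one of the other, as in the whole lists. Among the 26 liver peaks, 7 shared 1 bp or more with a peak of the uterus list, or 26.9% (95% Wilson interval 13.7 to 46.1), beside 23.7% of all liver peaks. Among the 37 uterus peaks, 7 did so with the liver list, or 18.9% (9.48 to 34.2), beside 6.58% of all uterus peaks. The intervals cover counting error only, and since the stretch was picked with these lists in view nothing is read from the shares. The liver share lay near that of its list and the uterus share above it, in a stretch that also holds many more liver peaks than most. The 63 peaks thus marked 56 distinct sites, 7 of them called in both tissues, 19 in liver only and 30 in uterus only. "Only" refers to the called lists, since a site below the cutoff of the other library is counted there.

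**Figure D1:**
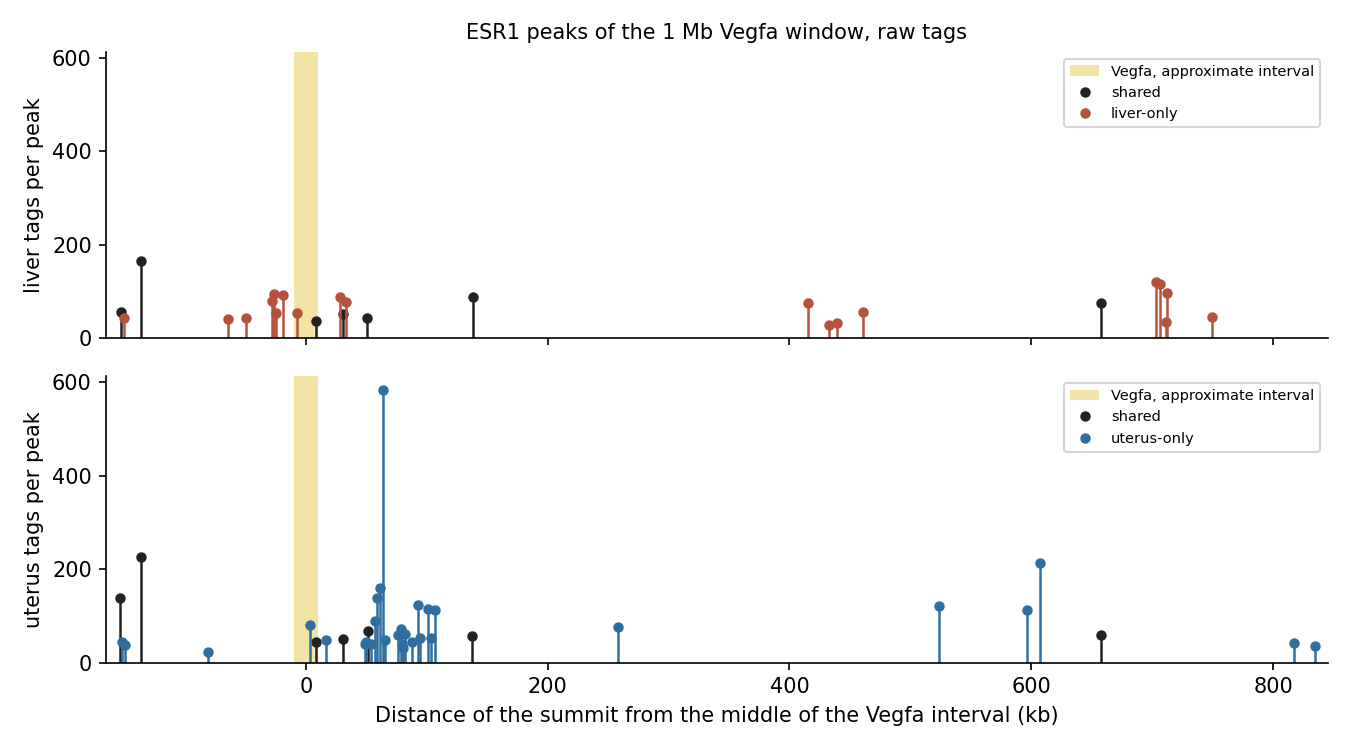
Raw tags per peak (vertical) against the distance of the summit from the middle of the approximate Vegfa interval in kb (horizontal), for the 26 liver peaks (upper panel) and the 37 uterus peaks (lower panel) of the stretch; each line is 1 peak, black where the tissues overlap and coloured where 1 list alone has it. The uterus peak of 584 tags stands upstream of the gene among a dense row of uterus-only peaks, and the liver peaks there are few.

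Sites in order along the chromosome fell into 23 stretches of 1 class each, with shared sites counted as a class of their own. The stretch with the most sites was 17 uterus-only sites in a row over 53.2 kb on the upstream side. Next by number of sites came 7 liver-only sites in a row over 57.8 kb that run from the downstream side into the interval. On the downstream side of the interval there were 9 liver and 5 uterus peaks, inside it 2 and 2, and on the upstream side 15 and 30. Within 10 kb of the interval each list held 3 peaks, within 20 kb the liver list held 7 and the uterus list 3, within 50 kb they held 11 and 10, and within 100 kb 12 and 25. Up to 100 kb, the liver count thus rose most, and equally, in the steps to 20 and to 50 kb. The uterus count rose most in the step from 50 to 100 kb. Beyond 100 kb lay 14 liver and 12 uterus peaks.

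Inside the interval itself, each tissue had a site of its own and both had one in common. The uterus-only peak, at 46163249 to 46163775, held 80 tags and was 36.1-fold enriched over the control, a fold enrichment above that of 89.3% of the uterus list. The liver-only peak, at 46152805 to 46153408 near the downstream end, held 54 tags at 10.4-fold, close to the middle of the liver list in both measures. The nearest summits of the other tissue were 4.55 kb from the uterus peak and 10.4 kb from the liver one.

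The site found in both tissues inside the interval was among the weaker peaks of either list. It lay at 46167726 to 46168212 in liver, with 36 tags at 6.62-fold, and at 46167735 to 46168327 in uterus, with 43 tags at 8.91-fold. Its summits were 8 bp apart, the closest of the 7 pairs, and lay 1.98 kb (liver) and 1.97 kb (uterus) inside the upstream, start-site end of the rough interval. In tags it ranked above 9.95% of the liver list and 32.9% of the uterus list. The MACS score, 10 times the −log10 of the p-value, was 108 in liver and 101 in uterus, where the lowest score in either list is 100. It is therefore a call near the cutoff in both libraries.

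Liver ESR1 gathered just downstream of Vegfa, where the uterus list had no peak. A run of 4 liver-only peaks, with successive summits no more than 10 kb apart, spanned 9.68 kb, from 18.4 to 8.70 kb below the interval, and held 319 tags. Its peaks lay at 46131273 to 46131932 (79 tags, 19.9-fold), 46133679 to 46134383 (94 tags, 21.2-fold), 46135249 to 46135796 (54 tags, 8.57-fold) and 46140969 to 46141711 (92 tags, 17.1-fold). The second of these had the highest fold enrichment of all 26 liver peaks, above 90.9% of the liver list. The nearest uterus summit lay 22.2 to 31.8 kb from these 4 peaks. Of the 5247 runs of the whole liver list, single peaks included, 130 had 4 peaks or more. Farther down, 2 more liver-only peaks lay 39.6 and 54.8 kb below the interval, at 46110039 to 46110600 (44 tags, 10.6-fold) and 46094949 to 46095464 (40 tags, 9.64-fold). In the same 100 kb the uterus list had a single peak, at 46078898 to 46079263, 70.9 kb below the interval, and its 22 tags were the fewest of the 37 uterus members.

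On the upstream side the tissues alternated at first. A uterus-only peak lay 6.84 kb above the interval, at 46176589 to 46177138, with 49 tags at 19.7-fold. A run of 3 liver peaks followed at 18.5 to 23.5 kb. Its outer peaks were liver-only, at 46188146 to 46188818 (89 tags, 15.7-fold) and 46193156 to 46193867 (78 tags, 12.2-fold), and its middle peak was one of the 7 shared sites. That shared site lay at 46190091 to 46190674 in liver and 46190095 to 46190551 in uterus, had 51 tags in each library, and its fold enrichment was 13.1 in liver and 15.5 in uterus. Its summits were 21 bp apart.

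From 38.7 kb upstream outward, the uterus list became dense. Between 30 and 100 kb above the interval, limits chosen after the values were seen, there were 20 uterus peaks within 58.2 kb and 1 liver peak. These 20 peaks were 54.1% of the 37 uterus members and held 1968 of their 3374 tags, or 58.3%. Both shares follow in part from that choice of limits. They formed runs of 9 and 11 peaks, parted by a gap just over the 10 kb that ends a run. By number of peaks, the run of 11 was among the 10 largest of the 17486 runs of the whole uterus list, single peaks included. The run of 9 was among the 29 largest.

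The leading peak of the region lay in the run of 9. At 46223134 to 46224529, 54.0 kb upstream of the interval, the uterus library had 584 tags (exact Poisson 95% interval 538 to 633) at 85.1-fold, which ranked 67 by tags among the 24836 uterus peaks. Its score of 3100 is given for 279 uterus peaks and so appears to be a placeholder for the smallest p-values. It is not the top value, since scores in the uterus list reach 3228. No liver peak lay at the 584-tag peak, and 13.03 kb separated its summit from the closest liver summit. Its neighbours on the downstream side within the run also held many tags. They had 159 tags at 46220984 to 46221743 (26.5-fold), 139 tags at 46218022 to 46219173 (13.6-fold) and 88 tags at 46217164 to 46217842 (16.1-fold). By fold enrichment these 3 stood above 81.2%, 44.0% and 56.2% of the uterus list. The 139-tag peak was also wide, 1152 bp beside a list median of 579 bp. On the other side of the 584-tag peak, a peak at 46224679 to 46225382 held 48 tags at 7.76-fold. The remaining 4 peaks of this run, 38.7 to 43.7 kb upstream, held 39 tags (46208431 to 46208985), 43 tags (46209071 to 46209654), 67 tags (46210651 to 46211364) and 40 tags (46213406 to 46213910), at 7.83- to 11.5-fold. The third of them is shared with liver.

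The run of 11 uterus peaks, 65.9 to 96.9 kb upstream, had no liver summit within it. Its strongest members were at 46252225 to 46253421 (123 tags, 20.8-fold), 46260735 to 46261374 (114 tags, 40.6-fold) and 46266530 to 46267243 (113 tags, 21.9-fold). The second of these had a fold enrichment above 91.5% of the uterus list. Of the others, 2 lay at 46235620 to 46236215 (58 tags) and 46238728 to 46239368 (72 tags), at 17.8- and 18.6-fold. A tight group of 3 followed at 46239569 to 46240110 (39 tags), 46240203 to 46240680 (31 tags) and 46241253 to 46241935 (61 tags), at 10.2- to 12.0-fold. Then came 46247684 to 46248271 (45 tags), whose 5.90-fold was the lowest enrichment of the uterus members, and 46254539 to 46255132 (52 tags) and 46263458 to 46264053 (53 tags), at 13.7- and 12.8-fold. Strong and weak peaks were thus mixed in this run, while the highest tag counts of the dense stretch stood together around the 584-tag peak.

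**Figure D2:**
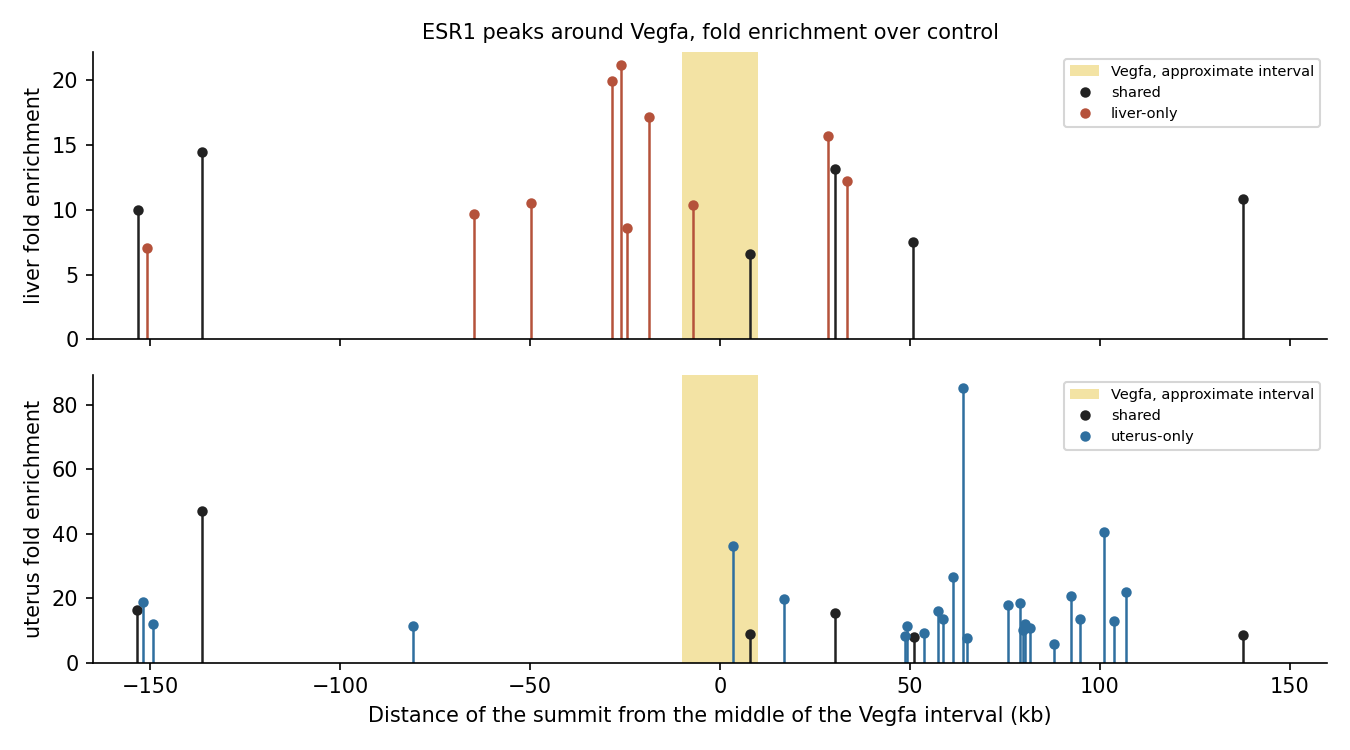
Fold enrichment over control per peak (vertical, a scale of its own in each panel) against the distance of the summit from the middle of the approximate Vegfa interval in kb (horizontal), for peaks near the gene in liver (upper) and uterus (lower). Liver-only peaks of up to 21.2-fold stand just downstream of the interval, where uterus has none, and uterus-only peaks of up to 85.1-fold stand upstream.

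The 7 shared sites were spread over the stretch and were of unequal strength. For them, depth-scaled tags, that is tags per 1000000 unique tags of the library, are given with exact Poisson 95% intervals, and ratios with exact intervals from the tag counts; these cover counting error and compare 2 libraries, not the tissues. The strongest lay 126 kb downstream, at 46022265 to 46023938 in liver (166 tags, 14.4-fold) and 46023184 to 46024056 in uterus (225 tags, 47.1-fold). Its 166 tags were the most of any liver member. It had 8.29 depth-scaled tags in liver (7.08 to 9.66) and 10.1 in uterus (8.81 to 11.5), a ratio of uterus to liver of 1.22 (0.991 to 1.496). The liver peak was the wider, 1674 bp against 873 bp, and per kb of peak the depth-scaled tags were 4.95 in liver and 11.6 in uterus, the widest gap per kb of the 7 sites.

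Depth-scaled tags at 1 of the 7 shared sites were higher in the uterus library with a ratio whose interval lay above 1, and at 2 sites the interval lay below 1. The first was the site farthest downstream, 143 kb from the interval, at 46006443 to 46007077 in liver (55 tags, 9.99-fold) and 46005820 to 46007041 in uterus (138 tags, 16.4-fold). It had 2.75 depth-scaled tags in liver (2.07 to 3.58) and 6.19 in uterus (5.20 to 7.31), a ratio of 2.25 (1.64 to 3.14), over peaks of 635 and 1222 bp. Per kb of peak the depth-scaled tags were 4.33 in liver and 5.06 in uterus. The site 128 kb upstream went the other way, with 4.40 depth-scaled tags in liver (3.53 to 5.42) and 2.56 in uterus (1.94 to 3.31), a ratio of 0.581 (0.409 to 0.821). It lay at 46297142 to 46298079 in liver (88 tags, 10.8-fold, 938 bp) and 46297473 to 46298044 in uterus (57 tags, 8.63-fold, 572 bp), and per kb the depth-scaled tags were closer, 4.69 and 4.47. The site 648 kb upstream, at 46817530 to 46818236 in liver (76 tags, 10.3-fold) and 46817552 to 46818234 in uterus (58 tags, 6.99-fold), had a ratio of 0.685 (0.478 to 0.977), and per kb the depth-scaled tags were 5.37 and 3.81.

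At the other 4 shared sites the interval of the ratio included 1. These were the 14.4- and 47.1-fold site above, whose values per kb nonetheless lay far apart, the site inside the interval (ratio 1.07, 0.673 to 1.72), that at 20.4 kb upstream (0.898, 0.597 to 1.35) and that at 41.0 kb upstream. The last lay at 46210680 to 46211230 in liver with 43 tags at 7.49-fold, and with 67 tags at 7.83-fold in uterus its ratio was 1.40 (0.940 to 2.10). Per kb of peak, the depth-scaled tags of these last 3 sites were 3.69, 4.36 and 3.90 in liver and 3.25, 5.005 and 4.21 in uterus. Summits of the 7 pairs were 8 to 157 bp apart, with a median of 97 bp, and 3 pairs were within 50 bp. Over all 1651 overlapping pairs of the lists the median was 38 bp, and 947 were within 50 bp.

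**Figure D3:**
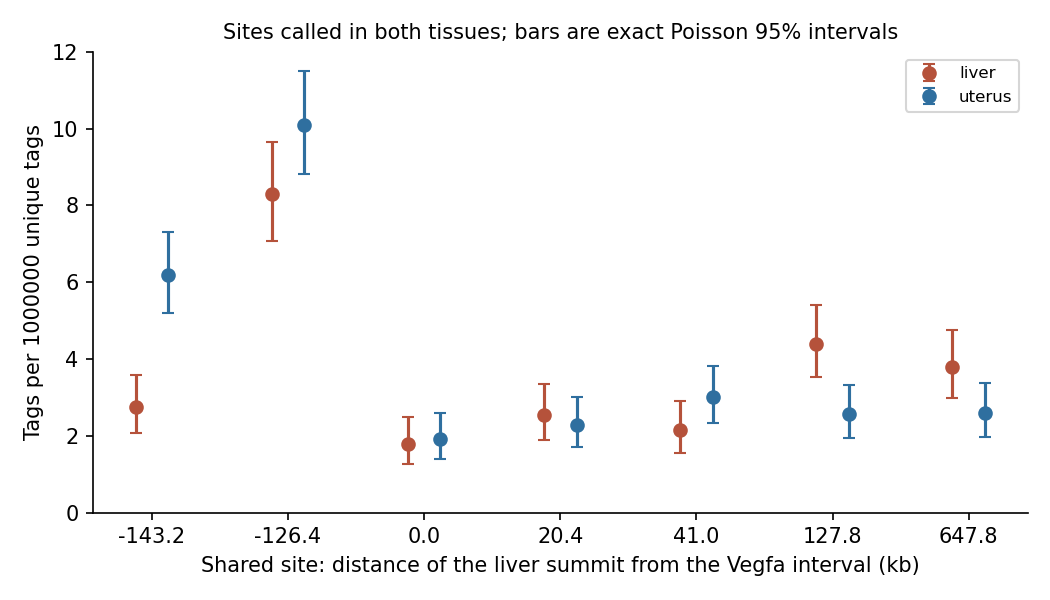
Tags per 1000000 unique tags (vertical) at the 7 sites called in both tissues, placed in order by the distance of the liver summit from the Vegfa interval in kb (horizontal, negative is downstream); points are 1 library each and bars are exact Poisson 95% intervals. The bars part at the first site, with 2.75 in liver and 6.19 in uterus, and at the site 128 kb upstream, with 4.40 in liver and 2.56 in uterus. At both sites the called peaks differ in width between the tissues, which the bars do not cover. Per kb of peak the values are 4.33 in liver and 5.06 in uterus at the first site, and 4.69 and 4.47 at the other.

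Beyond 100 kb from Vegfa the stretch held 14 liver and 12 uterus peaks. Near its low end, beside the site 143 kb downstream, 2 uterus-only peaks (44 and 38 tags) and 1 liver-only peak (43 tags) lay within a few kb of each other without overlapping. The liver-only peak there, at 46009204 to 46009834, was 1.25 kb by summit from the uterus peak at 46007920 to 46008277 and 1.34 kb from that at 46010387 to 46010917. It was the only liver-only peak of the region with uterus summits this near on both sides.

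Upstream of the dense uterus stretch both lists thinned out. No summit of either tissue lay in the 121 kb between the shared site at 128 kb and a uterus-only peak at 46418266 to 46418825 (77 tags, 28.9-fold), or in the 157 kb after it. Then 4 liver-only peaks of 29 to 75 tags came in a row, 406 to 451 kb upstream, followed by 3 uterus-only peaks 514 to 597 kb upstream. These 3 were the uterus-only peaks with the most tags outside the first 100 kb, at 46682996 to 46683914 (122 tags, 17.1-fold), 46755994 to 46756953 (113 tags, 14.6-fold) and 46766394 to 46767546 (212 tags, 23.9-fold).

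Another liver run lay far upstream, toward the high end of the stretch. At 693 to 702 kb upstream, 4 liver-only peaks spanned 9.37 kb and held 367 tags, with no uterus summit among them. The 3 with the most tags were the strongest liver-only peaks outside the first 100 kb, at 46862448 to 46863780 (120 tags, 13.6-fold), 46865333 to 46866417 (116 tags, 17.4-fold) and 46872055 to 46872834 (97 tags, 20.6-fold); the fourth, at 46870907 to 46871469, held 34 tags. This run matched the one just downstream of Vegfa in its number of peaks and nearly in its span. A last liver-only peak of 46 tags and 2 uterus-only peaks of 41 and 36 tags lay beyond it.

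**Figure D4:**
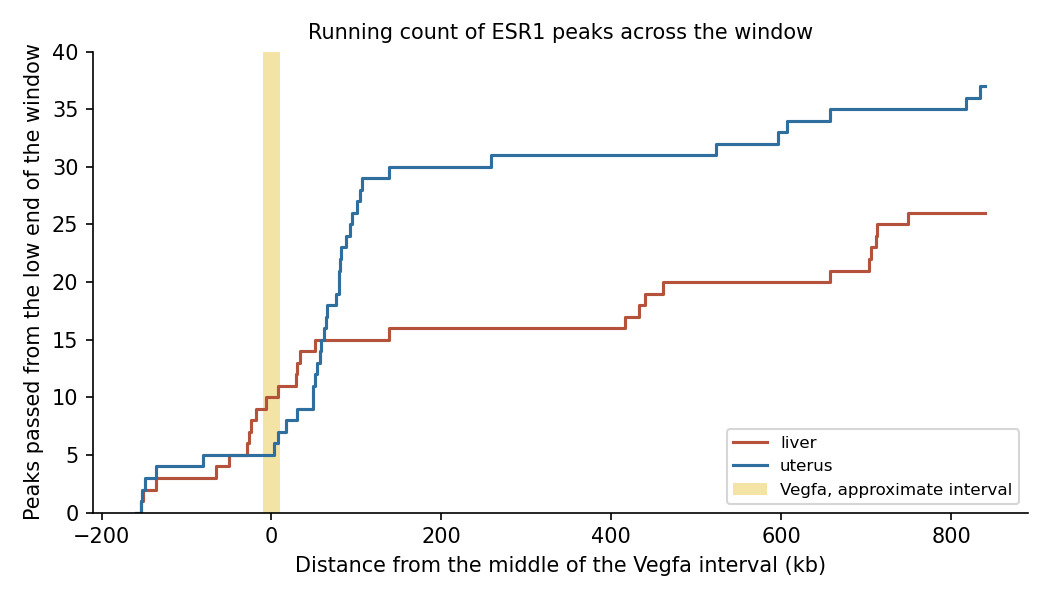
Running count of peaks from the low end of the stretch (vertical) against the distance from the middle of the approximate Vegfa interval in kb (horizontal), 1 line for each tissue. The liver line climbs before and at the interval and again upstream, where 15 of the 26 liver peaks lie. The uterus line climbs mostly upstream of the interval, where 20 of its 37 peaks lie within 58.2 kb.

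In strength the members were ordinary for their lists apart from a few. The liver members held 29 to 166 tags with a median of 55.5, beside 58 in the whole liver list, and were 6.62- to 21.2-fold enriched with a median of 11.1, beside 11.2. The uterus members held 22 to 584 tags with a median of 58, beside 55, and were 5.90- to 85.1-fold enriched with a median of 13.7, beside 14.7. By tags, 12 of the 26 liver and 20 of the 37 uterus members lay above the median of their list. Together the liver members covered 19.0 kb at 94.3 tags per kb, or 89.3 depth-scaled tags, and the uterus members covered 25.8 kb at 131 tags per kb, or 151 depth-scaled tags. Sums over separately called peaks move with how much was called.

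By median, shared members were the less enriched ones in both tissues. Their median fold enrichment was 10.3 against 11.8 in the liver-only peaks and 8.91 against 14.2 in the uterus-only peaks; in the full liver list the shared peaks had the higher median, 12.0 to 11.0, and in the full uterus list the lower, 12.4 to 14.8. In tags the classes were close, with medians of 55 and 56 in liver and 58 and 55.5 in uterus. With both lists held to a fold enrichment of at least 10, only 2 of the 7 shared sites stayed shared, and at a score of at least 200 only 1, the strongest pair. Of the window peaks that passed, 2 of 18 liver and 2 of 28 uterus peaks were shared at the fold limit. At the score limit, 1 of 12 liver and 1 of 22 uterus peaks were shared. The share of all liver peaks that overlap moved to 18.1% and 19.4% under these limits, and that of uterus peaks to 3.93% and 4.10%.

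Members had close neighbours in their own list more often than the average peak, as a stretch taken for its many peaks must. Another summit of the same tissue lay within 10 kb of 15 of the 26 liver members, or 57.7%, beside 40.3% of the liver list, and of 26 of the 37 uterus members, or 70.3%, beside 47.5%. Of the 19 liver-only members 3 had a uterus summit within 10 kb, or 15.8%, beside 27.8% of all liver-only peaks, and of the 30 uterus-only members 9 had a liver summit that near, or 30%, beside 7.97% of all uterus-only peaks. The choice of a window with many peaks of both tissues bears on these shares too.

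Among the 2281 windows of 1 Mb that held a peak of either list, the Vegfa window had the second most liver peaks, tied with 1 other, beside a median of 1 and a highest count of 29. By uterus peaks it ranked 40 (median 9, highest 60), and by liver peaks shared with uterus it ranked 7, with 7 windows at that count including itself. Only 2 other windows had at least as many peaks in both lists, on chromosome 14 at 26 to 27 Mb (29 liver and 53 uterus peaks) and on chromosome 2 at 167 to 168 Mb (26 and 43). These ranks hang on where the grid falls and on the threshold. With the grid moved by 500 kb, the lower of the windows that cover the stretch ranked 4 by liver, 17 by uterus and 6 by shared liver peaks, and the upper one 80, 990 and 194. With scores of at least 200 in both lists the window ranked 4, 45 and 97. The 5 windows most like it, by the summed difference in liver, uterus and shared liver peaks, were that on chromosome 2 and those on chromosome 8 at 129 to 130 Mb (20 and 36), chromosome 16 at 30 to 31 Mb (19 and 38), chromosome 4 at 62 to 63 Mb (20 and 34) and chromosome 10 at 79 to 80 Mb (25 and 27). On chromosome 17 the windows on both sides held fewer peaks, though more than the medians. There were 8 liver and 21 uterus peaks at 45 to 46 Mb, and 8 and 14 at 47 to 48 Mb.

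**Figure D5:**
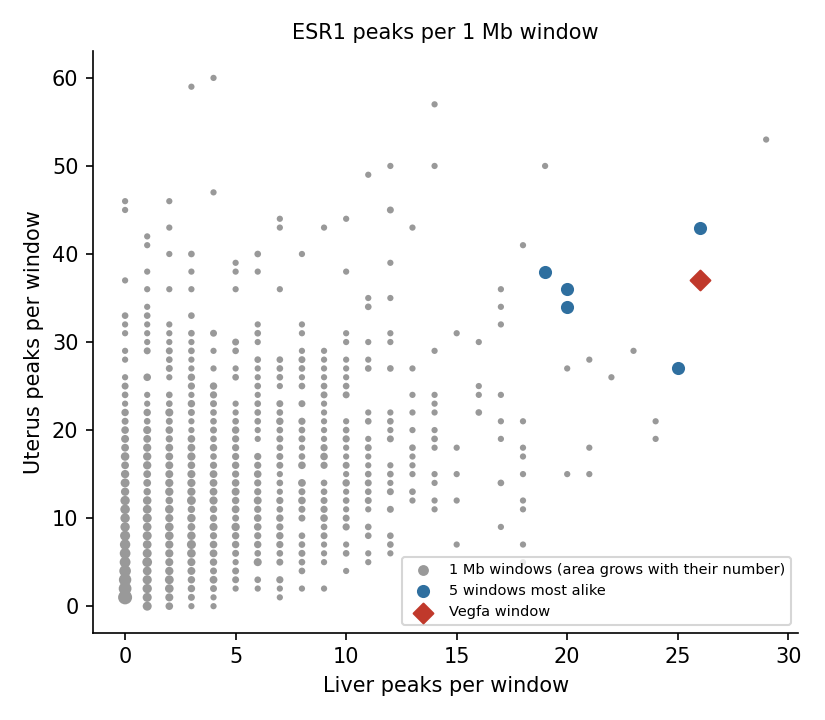
Uterus peaks (vertical) against liver peaks (horizontal) in each 1 Mb window with a peak; grey points are windows, larger where more windows share a pair of counts, blue points the 5 windows most alike and the red diamond the Vegfa window. The Vegfa window stands at 26 liver and 37 uterus peaks, far to the right of most windows.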

How the data were processed

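ESR1 ChIP-seq peak lists of 1 liver and 1 uterus library were used. Per the submitters' processing notes the authors called peaks with MACS 1.3.7.1 on mm9, and per the file headers they did so for each library against 1 control, with a p cutoff of 1e-10, 50 bp tags and a band width of 300 bp. No aligner is named in the sources used here. The deposited tags per peak are raw counts, the deposited fold enrichment is a ratio to the local control background, the score deposited for each peak is MACS's −log10 p-value multiplied by 10, and the false discovery rate was deposited as a percent.

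Peaks with a summit (start plus summit offset minus 1) in the 1 Mb window were kept. Shared means an overlap of at least 1 bp. The shares of all window peaks that overlap the other list carry Wilson intervals. Peaks within 100 kb of the interval, shared pairs and the 3 single-tissue peaks per list with the most tags elsewhere are named with values. The region, members and lists were chosen with earlier results of these data known. The overlap code was tested on simulated data: 300 of 300 planted pairs were found. The tools were scipy 1.17.1, pandas 2.3.3, numpy 2.4.6 and matplotlib 3.10.9 under Python 3.11.15. Alternatives were other overlap rules, thresholds, window bounds, grids and intervals.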

Additional observations from a re-analysis of the deposited data

Results flagged for a closer look

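Shared and single-tissue members differed in opposite directions in the liver and uterus lists by 3 measures, with 1 library each and no test of the difference. The median of the shared minus that of the single-tissue peaks was -1 tag in liver and 2.5 tags in uterus. In width the liver difference was -25 bp and the uterus difference 88 bp. In the MACS score it was 16.8 in liver and -45.1 in uterus. Each rests on 7 shared peaks, and the tag differences are small. In the full lists the shared peaks had the higher median by all 3 measures in both tissues.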

How the results depend on the processing

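Of 55 values under alternatives, 32 stayed within 1.5 times the value reported (or at 0). With scores of at least 200 required, the window held 12 liver and 22 uterus peaks with 1 shared site in each, the nearest liver summit lay 8.70 kb from the interval, liver tags per 1000000 unique tags fell to 58.5, and the window ranked 4 by liver and 97 by shared liver peaks; fewer peaks enter by construction. At a fold enrichment of at least 10, 2 peaks of each list were shared. Moved 250 kb up, the window held 13 liver and 15 uterus peaks, 3 shared in each list. On a grid moved by 500 kb, the lower window ranked 4 by liver and 17 by uterus peaks, and the upper one 80 by liver, 990 by uterus and 194 by shared liver peaks. From the higher end of the interval alone the nearest summits were 1.98 kb (liver) and 1.97 kb (uterus) away. Alternatives added after seeing the data included an interval narrowed by 5 kb at each end, which put the nearest liver summit 1.93 kb outside it. Another was a run gap of 20 kb, with which the largest uterus run had 24 peaks in place of 11. Allowing gaps of up to 1000 bp gave 8 liver and 9 uterus shared peaks, and requiring an overlap of 50% of both peaks gave 5 in each. No paired analysis was possible because each tissue has 1 library. What a deeper library would add was not tested; peaks that missed the cutoff in either list count as absent from it.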
